A study of Mus musculus with 6 samples.

Results

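Myosin heavy chains are the motor subunits of myosin II. In a muscle cell, sarcomeric heavy chains assemble with light chains into the thick filaments that pull on actin, and the isoform changes as the fibre matures, from embryonic and perinatal forms to the adult fast and slow forms. Non-muscle heavy chains drive the contraction of stress fibres and of the cell cortex in most cell types, myoblasts included. The genes described here were the embryonic heavy chain gene Myh3, the perinatal Myh8, the slow-type and cardiac-type Myh7b, the non-muscle heavy chain genes Myh9, Myh10 and Myh14, and Mybph, which encodes myosin binding protein H, a partner of the thick filament. They were chosen by name, with earlier results of these data known. Of these 7 genes, 5 had a transcript in the deposited table, out of 11835 genes in all.

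RNA was sequenced from C2C12 cells, a mouse myoblast line that can be differentiated in medium with horse serum, in a siNC group (transfected with NC siRNA, a negative control) and a siCNN3 group (transfected with CNN3 siRNA, against the actin-binding protein calponin 3), with 3 libraries each. The labels give the cells as mouse myotube and the study's methods as differentiating myoblasts, and those methods give a harvest time for differentiation experiments in general, without saying which CNN3 siRNA or harvest the sequenced libraries had. No separation of fused from unfused cells is named, so a library may hold both. The labels do not say whether the 3 libraries of a group came from separate cultures, so that p-values measure only the spread between these libraries, which may be technical.

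The authors' values are FPKM (fragments per length of transcript, scaled to the fragments mapped), which are per length and can be set side by side between genes. The number of reads is unknown, which leaves the counting error unknown too. FPKM of the listed transcripts of a gene were summed, and limma was run on log2(FPKM + 1) of the 11593 genes averaging 0.5 FPKM or more. A gene with a Benjamini-Hochberg adjusted p below 0.05 was called. All log2 fold changes are siCNN3 minus siNC on that scale, which understates the change of genes at low FPKM. Values of single libraries are given in the order of replicates 1, 2 and 3. The targeted gene Cnn3 read 62.8, 61.4 and 62.8 FPKM in the siNC libraries against 19.0, 39.2 and 25.6 FPKM after CNN3 knockdown. The change was -1.19 in log2 units (limma, standard error 0.242, adjusted p = 0.0669). Cnn3 was thus not called, and its siCNN3 mean was 44.8% of its siNC mean. Of 12 myotube markers, 10 were listed, and their summed level was 166.2 to 189.7 FPKM in siNC and 105.9 to 122.3 FPKM in siCNN3. Desmin (Des), the intermediate filament protein of muscle cells, made up most of this sum, with 117.2 ± 6.89 FPKM in the siNC group, compared with 91.3 ± 10.3 FPKM in the siCNN3 group (SD, n = 3, adjusted p = 0.196, limma), while Ckm, the muscle creatine kinase, was listed at 0 in 2 libraries and did not pass the filter. The siNC replicate 2 library stood apart from the other siNC libraries in the 13 interferon response genes, whose summed level was 25.5 to 387.8 FPKM in siNC and 1710 to 3404 FPKM in siCNN3. It was also the highest library for Myh3 and Mybph. The siCNN3 replicate 3 library had the lowest interferon sum of its group and the highest Myh3 and Myh7b. Across genes, its log2 values correlated with siNC replicates 1 and 3 (Pearson's r of 0.950 and 0.951) about as closely as with siCNN3 replicates 1 and 2 (0.947 and 0.956), and genes are not independent replicates. In siNC replicate 1, 2131 transcripts were listed at 0, compared with 978 to 1333 in the other libraries, and its log2 values correlated with siNC replicate 2 at 0.949. Without siCNN3 replicate 3 the counts of called genes were 159 lower and 443 higher, compared with 39 and 200 with all libraries.

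Promoter windows and a coding stretch are shown for the members whose values the results turn on. RefSeq sequence (GRCm38.p6) was matched for 7 of 7 genes, and the 250 bases before the annotated start are printed for Myh3 and Mybph, the members with the largest differences between the groups. Capitals mark E-boxes (CANNTG, the motif that myogenic bHLH factors such as MYOD and myogenin bind) and TATAAA on either strand (TTTATA where it lies on the other strand).
Myh3, chr11:67078050-67078299, plus strand: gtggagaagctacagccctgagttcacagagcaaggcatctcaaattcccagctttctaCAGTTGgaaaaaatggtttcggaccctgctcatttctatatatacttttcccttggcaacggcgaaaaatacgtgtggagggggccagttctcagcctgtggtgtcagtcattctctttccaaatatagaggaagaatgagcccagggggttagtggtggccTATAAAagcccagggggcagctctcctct
Mybph, chr1:134193198-134193447, plus strand: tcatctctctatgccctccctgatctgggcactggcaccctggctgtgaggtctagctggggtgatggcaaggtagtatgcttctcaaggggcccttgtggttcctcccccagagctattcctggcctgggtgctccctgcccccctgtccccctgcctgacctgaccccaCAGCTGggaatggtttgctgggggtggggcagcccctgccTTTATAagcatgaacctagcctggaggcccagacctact
The E-box began at position -191 from the start in Myh3 and at -79 in Mybph. Each of the 7 genes had at least 1 E-box in this window, as did 66.2% of the 32851 promoter windows of the table. The form CAGCTG was present in Mybph and Myh10 and in 13.0% of all windows. TATAAA on either strand was present in Myh3, Myh8, Myh9 and Mybph and in 12.4% of all windows. A MEF2 site, which overlaps the TATAAA match, was present in Myh8 and in 2.92% of all windows, and a CArG box in 0 of the 7 genes and in 1.47% of all windows. The window was 49.2% GC in Myh3 and 61.6% in Mybph, compared with 62.4% in Myh9, 62.8% in Myh10 and a median of 52.4% over the table. A match gives the letters alone and does not show that a factor is bound.

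Myh3 encodes the embryonic skeletal heavy chain, which is made in developing and in regenerating muscle. It lies on chromosome 11 of GRCm38 (67078300 to 67102291, plus strand), and 1 of its 3 annotated transcripts, with 41 exons, 6031 bases and 5820 coding bases, was listed. The level of Myh3 read 1.96, 3.04 and 2.22 FPKM in the siNC libraries against 0.209, 0.245 and 0.451 FPKM after CNN3 knockdown. The groups were apart, and the highest siCNN3 value was far from the lowest siNC value. The mean was 2.41 ± 0.564 FPKM in the siNC group, compared with 0.302 ± 0.131 FPKM in the siCNN3 group (SD, n = 3), so that 12.5% of the siNC mean was left, a 7.98-fold lower level. The log2 fold change of Myh3 was -1.38 (standard error 0.183) with a 95% interval of -1.81 to -0.95 (adjusted p = 0.0193, limma), and it was called lower, as were 0.336% of all genes tested.
The fall of Myh3 was called when siNC 1, siNC 2 or siCNN3 3 was dropped (adjusted p from 0.0158 to 0.0468, limma), and the log2 fold change was -1.25 (adjusted p = 0.0420) without siNC 2 and -1.46 (adjusted p = 0.0158) without siCNN3 3. The call was lost when siNC 3, siCNN3 1 or siCNN3 2 was dropped (limma adjusted p = 0.0945, 0.0961 and 0.111), although the log2 fold change stayed between -1.33 and -1.41 in those fits. Tested as a transcript among 21658 transcripts, of which 0.0785% were called lower, the same FPKM values gave an adjusted p of 0.0732 (limma).
A level in a bulk sample is an average over its cells, and fewer myotubes and less Myh3 RNA in each myotube cannot be told apart.

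Mybph, whose product belongs to the myosin binding protein family and lies along the thick filament, was next in size of difference. It is on chromosome 1 (134193448 to 134201232, plus strand). The summed level of Mybph read 1.45, 3.08 and 1.49 FPKM in the siNC libraries against 0.745, 0.625 and 0.517 FPKM after CNN3 knockdown. The groups did not overlap, but siNC replicate 2 stood well above the other siNC libraries and set much of the siNC spread. The mean was 2.00 ± 0.929 FPKM in the siNC group, compared with 0.629 ± 0.114 FPKM in the siCNN3 group (SD, n = 3). Its log2 fold change was -0.84 (standard error 0.234, 95% interval -1.40 to -0.29, adjusted p = 0.136, limma), so Mybph was not called. Without siNC replicate 2 its log2 fold change was -0.60 (adjusted p = 0.231), and without siCNN3 replicate 3 it was -0.79 (adjusted p = 0.151).
Both annotated transcripts of Mybph were listed, and they have the same 1449 coding bases and differ in their ends. The transcript with 10 exons keeps in its last exon a stretch that is spliced out of the transcript with 11 exons. The 11-exon transcript read 0.572, 2.51 and 0.852 FPKM in the siNC libraries against 0.745, 0.178 and 0.0835 FPKM after CNN3 knockdown, and these groups overlapped. The 10-exon transcript was at 0.874, 0.564 and 0.637 FPKM in siNC and was listed at 0, 0.447 and 0.433 FPKM in siCNN3. The part of Mybph FPKM given to the 11-exon transcript ran from 16.2% to 100% over the libraries.

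Myh7b, a heavy chain gene of heart and slow muscle, was near the floor of the table. It is on chromosome 2 (155611212 to 155634307, plus strand), with 1 of its 3 annotated transcripts listed. Its level read 0.823, 0.105 and 0.735 FPKM in the siNC libraries against 0.140, 0.317 and 1.14 FPKM after CNN3 knockdown. The groups overlapped fully, with the lowest library in siNC and the highest in siCNN3. The log2 fold change was -0.04 with a 95% interval of -0.77 to 0.69 (adjusted p = 0.964, limma), which leaves room for a change in either direction. Its sign turned when siNC replicate 3, siCNN3 replicate 1 or siCNN3 replicate 2 was left out, and it did not pass the filter without siNC replicate 1 or siCNN3 replicate 3.

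**Figure D1:**
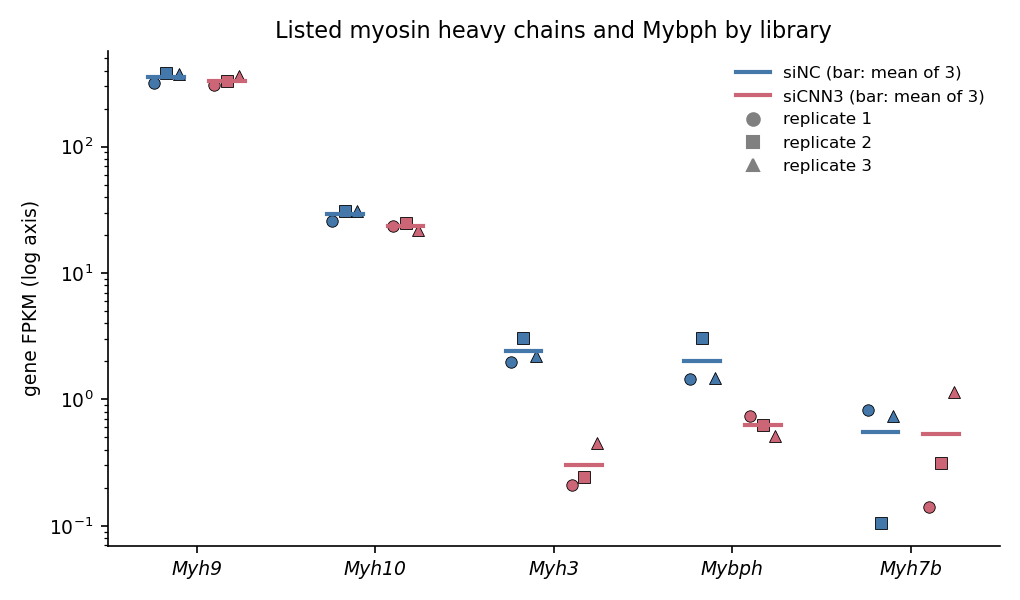
Gene FPKM (log axis) of the 5 listed genes in each library, with siNC in blue and siCNN3 in red, symbols for replicates and bars for the mean of 3 libraries. Myh9 lies at 307.8 FPKM or more in each library, Myh3 lies at 1.96 FPKM or more in siNC and at 0.451 FPKM or less in siCNN3, and the Myh7b groups overlap.

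Myh9, which encodes the heavy chain of non-muscle myosin IIA, had the highest level of the 4 heavy chain genes listed. It is on chromosome 15 (77760587 to 77842175, minus strand), and 1 of its 9 annotated transcripts was listed. Its level read 316.2, 381.1 and 372.5 FPKM in the siNC libraries against 307.8, 329.4 and 360.3 FPKM after CNN3 knockdown. The groups overlapped, and Myh9 ranked between 124 and 170 among all genes of a library. The mean was 356.6 ± 35.3 FPKM in the siNC group, compared with 332.5 ± 26.4 FPKM in the siCNN3 group (SD, n = 3). A difference was not detected, with a log2 fold change of -0.10 and a 95% interval of -0.37 to 0.17 (adjusted p = 0.718, limma). It was -0.18 without siNC replicate 1, -0.05 without siNC replicate 2 and -0.16 without siCNN3 replicate 3 (adjusted p = 0.466, 0.880 and 0.426, limma).

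Myh10, the heavy chain gene of non-muscle myosin IIB, read 25.7, 30.8 and 30.7 FPKM in the siNC libraries against 23.5, 24.9 and 21.8 FPKM after CNN3 knockdown. It lies on chromosome 11 (68691559 to 68816632, plus strand). The groups of the summed Myh10 values did not overlap, by a narrow gap between 24.9 and 25.7 FPKM. The mean was 29.1 ± 2.93 FPKM in the siNC group, compared with 23.4 ± 1.60 FPKM in the siCNN3 group (SD, n = 3), or 80.5% of the siNC mean. The limma fit gave a log2 fold change of -0.30 (standard error 0.127, 95% interval -0.60 to 0.0033) and an adjusted p of 0.314, which is not a call. In all, 3 of the 5 listed members (Myh3, Mybph and Myh10) had every siCNN3 library below every siNC library, as did 9.35% of all genes tested.

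The value of Myh10 differed between the sum and its main transcript. Of 10 annotated transcripts 2 were listed, ENSMUST00000102611 (the main transcript below) and ENSMUST00000092984 (the extended transcript), and they share all exons but the first and the far end of the last. The main transcript read 25.7, 15.2 and 30.7 FPKM in the siNC libraries against 23.5, 24.9 and 21.8 FPKM after CNN3 knockdown. The extended transcript was at 0.0187, 15.6 and 0 FPKM in siNC and was listed at 0 in the 3 siCNN3 libraries. Thus 50.6% of Myh10 FPKM went to the extended transcript in siNC replicate 2, and 0.0727% or less in each other library. With the main transcript alone the log2 fold change of Myh10 turned to 0.026 (adjusted p = 0.973, limma), with siNC replicates 1 and 3 above and siNC replicate 2 below every siCNN3 library. Without siNC replicate 2 the summed value was -0.26 (adjusted p = 0.478, limma) and without siCNN3 replicate 3 it was -0.25 (adjusted p = 0.298, limma).
The first exon of the extended transcript (chr11:68692316-68692559) lies downstream of that of the main transcript (chr11:68691915-68692182), which is non-coding. It has a start codon of its own, and together with 31 more bases of exon 2 it puts 111 coding bases, or 37 codons, ahead of the start codon of the main transcript. Of the annotated Myh10 transcripts, 1 holds the coding part of this exon, printed here with the start codon in capitals.
Myh10 extended transcript exon 1 coding part, chr11:68692480-68692559, plus strand: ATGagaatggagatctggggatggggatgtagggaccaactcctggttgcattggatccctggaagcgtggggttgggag

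**Figure D2:**
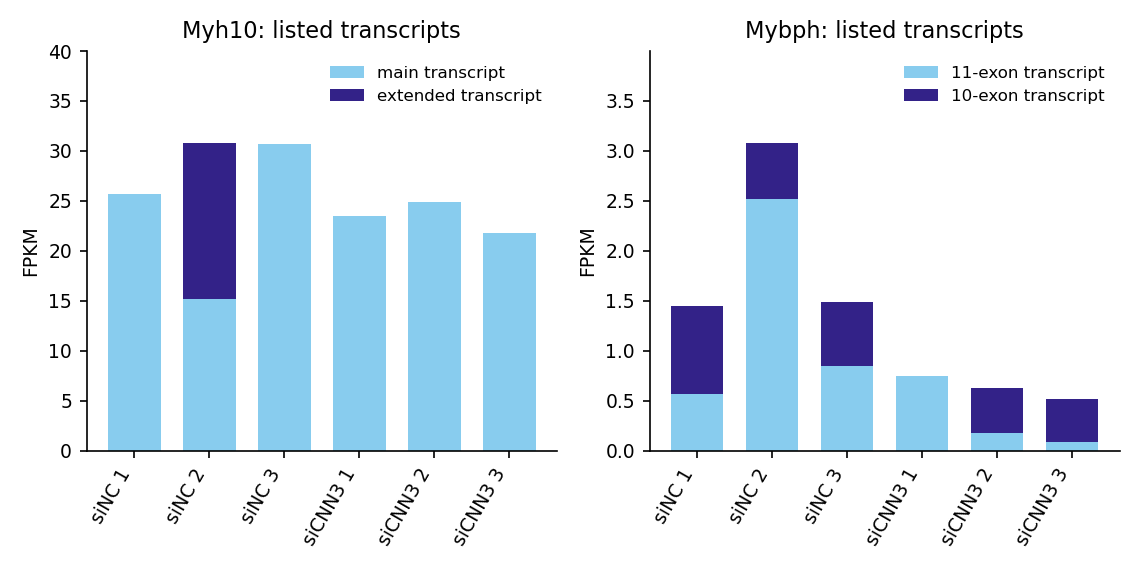
FPKM of the 2 listed transcripts of Myh10 (left) and of Mybph (right), stacked by library. The Myh10 column of siNC 2 is split evenly between the main transcript and the extended transcript, while the other columns are the main transcript, and the split of Mybph differs from library to library.

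Myh8 and Myh14 had no row among the 24023 transcripts of the table, so they were not analysed here. The same holds for the adult skeletal heavy chain genes Myh1, Myh2 and Myh4, the slow and cardiac genes Myh7 and Myh6, the smooth muscle gene Myh11, and Myh13 and Myh15. On chromosome 11 the skeletal genes Myh3, Myh2, Myh1, Myh4, Myh8 and Myh13 stand in a row between 67078300 and 67371586, and Myh3 alone of these 6 was listed.
The skeletal heavy chains are alike in sequence, so reads can be shared between them. Of the 5982 windows of 50 bases in the listed Myh3 transcript, 288 (4.81%) were also present in a transcript of another heavy chain gene. There were 169 in Myh13, 109 in Myh2, 96 in Myh1, 94 in Myh8 and 55 in Myh4. For Myh9 this was 1.12% of windows, for the main Myh10 transcript 0.943%, and for Myh7b 0 of 6114 windows. How reads that match several genes were counted is not given in the sources used here.
The heavy chain genes for which the study lists PCR primers were Myh1, Myh2, Myh4 and Myh7, and these 4 are among the genes not listed. By exact match to GENCODE transcripts, the 8 primers matched 0 of the 7 genes described here. Both primers of Myh1, Myh2 and Myh7 matched their own gene and no other. The Myh4 pair is printed because it differed. Its reverse primer matched Myh4 and Myh1, and 19 of the 21 bases of its forward primer were the longest run found in Myh4.
Myh4 forward primer: ttgaaaagacgaagcagcgac
Myh4 reverse primer: agagagcgggactccttctg

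Set side by side, the listed heavy chains were ordered Myh9, Myh10, Myh3 and Myh7b in siNC. Myh9 exceeded Myh10 by 12.3, 12.4 and 12.1 times in the siNC libraries and by 13.1, 13.2 and 16.6 times in the siCNN3 libraries. The Myh9 over Myh10 ratio was 12.3 ± 0.130 in siNC and 14.3 ± 1.98 in siCNN3 (SD, n = 3), with siCNN3 replicate 3 farthest out. The groups of this ratio did not overlap, and the exact permutation test (two-sided) gave p = 0.1, the smallest that 3 libraries against 3 allow. Computed without the extended Myh10 transcript, the log2 ratio of Myh10 to Myh9 turned its direction (difference 0.13, exact permutation p = 1).
In siNC the ranges of Myh3 and Mybph overlapped, and Myh7b lay below both. In siCNN3 Mybph lay above Myh3, and both fell inside the range of Myh7b. Thus in siCNN3 the place of Myh7b among these 3 genes could not be set.
Myh3 and Myh7b together made up 0.808%, 0.758% and 0.727% of the summed FPKM of the 4 listed heavy chains in the siNC libraries and 0.105%, 0.158% and 0.415% in the siCNN3 libraries. The mean share was 0.764% ± 0.0408 in siNC and 0.226% ± 0.166 in siCNN3 (SD, n = 3, two-sided exact permutation p = 0.1). This share is a ratio within a library, so that a scaling factor of the whole library cancels. The sum of Myh3 and Myh7b was 2.96 ± 0.181 FPKM in the siNC group, compared with 0.834 ± 0.665 FPKM in the siCNN3 group (SD, n = 3, exact permutation p = 0.1), and the high siCNN3 replicate 3 value came from Myh7b. The sum of Myh9 and Myh10 was 385.6 ± 38.2 FPKM in the siNC group, compared with 355.9 ± 25.4 FPKM in the siCNN3 group, with overlapping groups (SD, n = 3, exact permutation p = 0.3).

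**Figure D3:**
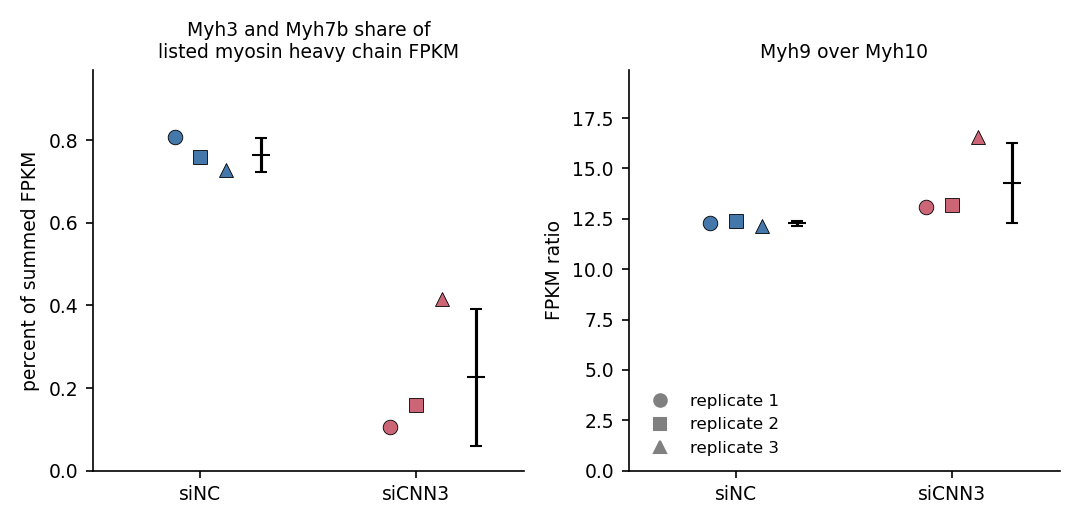
Share of the summed FPKM of the listed myosin heavy chains that came from Myh3 and Myh7b (left, percent) and the ratio of Myh9 to Myh10 FPKM (right), per library with the mean and SD of 3 libraries. The share is 0.727% or more in each siNC library and 0.415% or less in each siCNN3 library, and the ratio is 12.4 or less in siNC and 13.1 or more in siCNN3.

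The muscle light chains, which bind the neck of the sarcomeric heavy chains, included 3 genes that fell beside Myh3. The list also holds the kinases Mylk2 and Mylk4, which act on light chains. Of its 9 genes 5 were listed and tested (Myl1, Myl4, Mylpf, Myl6b and Mylk2), 3 were called lower and 0 higher by limma, where 0.336% of all genes tested were called lower and 1.73% higher. The median log2 fold change of these 5 genes, Mylk2 included, was -0.92, compared with a median of 0.03 over all genes tested. With the highest transcript only, the median was -0.34 and Mylpf alone was called. Mylpf, the regulatory light chain of fast muscle, read 22.8, 36.5 and 25.4 FPKM in the siNC libraries against 5.88, 7.36 and 7.16 FPKM after CNN3 knockdown. Myl4, the embryonic and atrial essential light chain, read 5.81, 8.19 and 5.64 FPKM in the siNC libraries against 2.33, 1.63 and 2.36 FPKM after CNN3 knockdown. The groups did not overlap for either gene, as for Myh3. Their log2 fold changes were -1.88 and -1.27 (adjusted p = 0.0099 and 0.0304, limma). Myl1, the essential light chain of fast fibres, was lower by a log2 change of -0.92 (limma, adjusted p = 0.0494), a call that was lost whichever 1 library was left out. With 1 library left out, between 0 and 2 of these 5 genes were called, 0 of them without siNC replicate 3 or siCNN3 replicate 2. In these fits Myl4 kept its call only without siCNN3 replicate 3.
Of 13 thick filament partners, 6 were tested and 0 were called in either direction by limma (1 was lower and 0 higher at an unadjusted p below 0.05, where 6.14% of all genes tested were lower and 9.94% higher), with a median log2 fold change of -0.15. This median was -0.29 without siNC replicate 1, 0.032 without siNC replicate 2, -0.09 without siNC replicate 3 and -0.05 without siCNN3 replicate 3, so that its direction turned with 1 library. Myom2, an M-band protein that ties thick filaments together, had the largest difference, from 1.68 ± 0.557 FPKM in siNC to 0.788 ± 0.180 FPKM in siCNN3 (SD, n = 3, log2 fold change -0.57, adjusted p = 0.222, limma). Titin (Ttn) and the myosin binding protein C genes Mybpc1, Mybpc2 and Mybpc3 were not listed.
Of 11 genes of myosin folding and assembly 8 were tested and 0 were called by limma (0 lower and 1 higher at an unadjusted p below 0.05), with a median log2 fold change of 0.12, which turned to -0.026 without siNC replicate 1 and to -0.0023 after quantile normalization. Cavin4, a caveolar protein of muscle, read 17.7, 22.3 and 21.8 FPKM in the siNC libraries against 36.1, 34.1 and 28.0 FPKM after CNN3 knockdown (log2 fold change 0.64, adjusted p = 0.0939, limma), and it was called higher without siCNN3 replicate 3. The groups of Cavin4 did not overlap, with the siCNN3 libraries on the high side, as for 13.8% of all genes.

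For non-muscle myosin II, 21 genes of the light chains and their control were tested, 0 were called lower and 1 higher by limma, where 1.73% of all genes tested were called higher. At an unadjusted p below 0.05 there were 6 lower and 3 higher, beside 6.14% and 9.94% of all genes. The median log2 fold change of the list was -0.19, and 17 of the 21 genes were below 0, as were 46.0% of all genes. The called gene was Arhgef2, a guanine nucleotide exchange factor that activates RhoA. Arhgef2 read 34.0, 31.3 and 29.3 FPKM in the siNC libraries against 60.5, 59.3 and 46.9 FPKM after CNN3 knockdown, which limma called higher by 0.79 on the log2 scale (adjusted p = 0.0441). With 1 library left out, Arhgef2 was called only without siCNN3 replicate 3, where Myl12b and Rhoa were called lower as well. It was not called after median-of-ratios scaling or quantile normalization, in limma without a trend, with the highest transcript only, or with transcripts above 0 in all libraries. Under median-of-ratios scaling S100a4, a calcium-binding protein that binds the Myh9 heavy chain, was called lower. S100a4 read 1814, 2428 and 2084 FPKM in the siNC libraries against 1467, 1357 and 1164 FPKM after knockdown (log2 fold change -0.66, adjusted p = 0.0728, limma). Myl6, the essential light chain shared by the non-muscle heavy chains, was at 664.9 ± 36.2 FPKM in the siNC group, compared with 517.3 ± 41.0 FPKM in the siCNN3 group (SD, n = 3, adjusted p = 0.127, limma). The groups of S100a4 and Myl6 did not overlap, while those of Myh9 did. Of the 21 genes, 6 had every siCNN3 library below every siNC library, as did 9.35% of all genes. In 3 (Arhgef2, Rhoc and Ppp1r12a) every siCNN3 library was above, as in 13.8% of all genes. Rhoc had means of 168.8 FPKM in siNC and 216.3 FPKM in siCNN3 (adjusted p = 0.129, limma). Ppp1r12a had means of 22.7 and 29.3 FPKM (adjusted p = 0.248, limma).

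**Figure D4:**
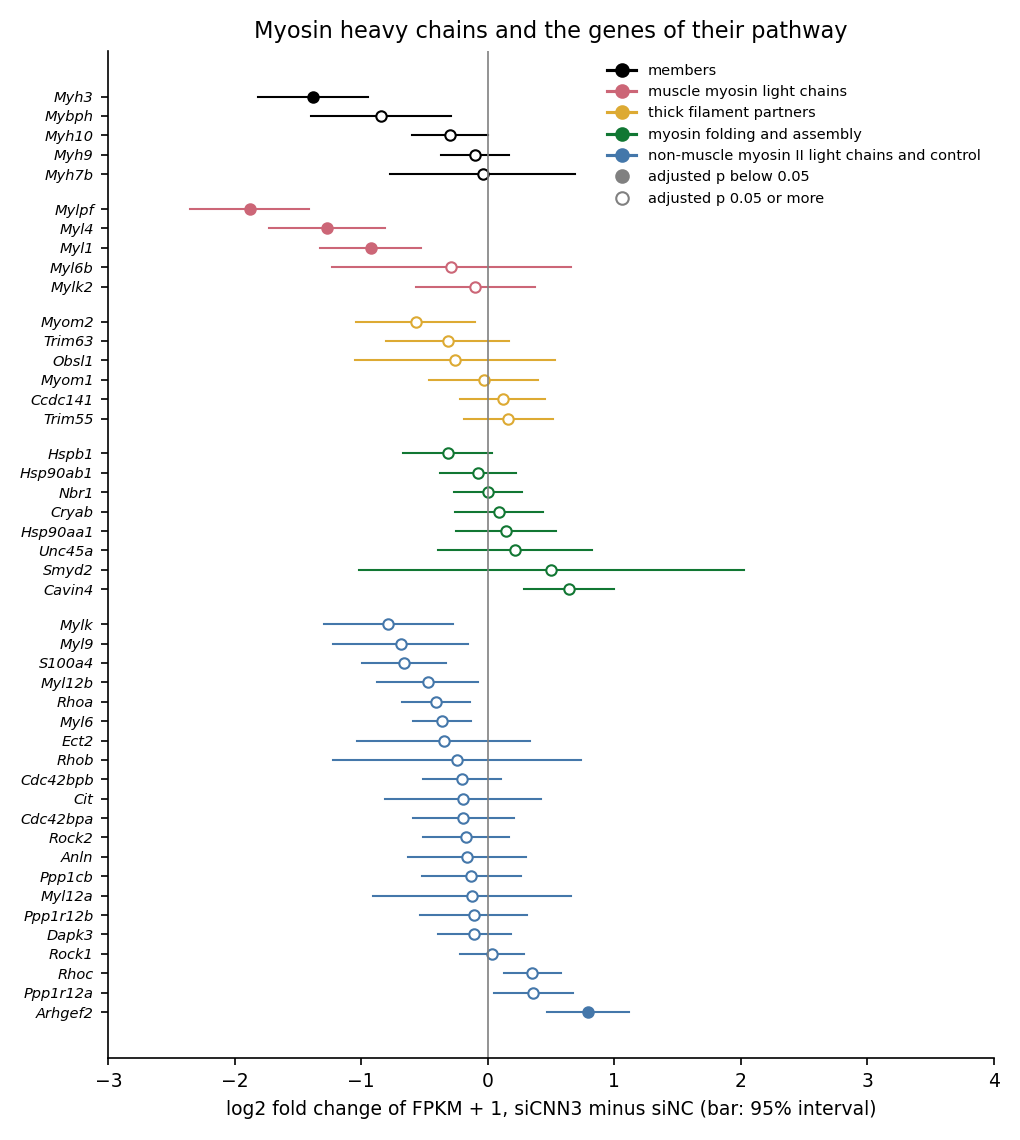
Log2 fold change of FPKM + 1 (siCNN3 minus siNC, bars for the 95% interval from limma) of the 5 listed members and of the tested genes of 4 related lists, with filled points for an adjusted p below 0.05. Myh3, Mylpf, Myl4 and Myl1 are filled below 0, Arhgef2 is filled above 0, and among the members the intervals of Myh9, Myh10 and Myh7b span 0.

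The genes whose levels followed Myh3 most closely over the 6 libraries, among 8181 genes averaging 5 FPKM or more, were Idh1, Acta1, Lztr1, Mylpf and Mmp9, with Pearson's r between 0.993 and 0.997. All points of such a correlation share the 2 groups and 6 libraries, and it is given as a description. Acta1, skeletal muscle alpha-actin, fell from 28.4 ± 4.80 to 5.72 ± 0.615 FPKM (SD, n = 3, adjusted p = 0.00473, limma). For Mybph they included Atp6v1g1, Hba-a2, Hba-a1 and Pcx (r between 0.988 and 0.995). For Myh9 they were Tmed10, Six4, Usp5, Usf2 and Tab1 (r between 0.982 and 0.992), with log2 fold changes between -0.23 and -0.05. For Myh10 they were Mtap, Gnaq, Zmynd11, Def8 and Chd4 (r between 0.988 and 0.993).
Other groups of genes were read in the same libraries as Myh3. Of 9 tested myotube markers, 2 were called lower (Acta1 and Tnnt3, against 0.336% of all genes), and all 9 had every siCNN3 library below every siNC library (against 9.35% of all genes). The call of Tnnt3 was lost, and that of Acta1 was not, when siNC 3, siCNN3 1 or siCNN3 2 was dropped, with the highest transcript only or with transcripts above 0 in all libraries. Myog, the transcription factor myogenin, read 1.23, 3.07 and 2.26 FPKM in the siNC libraries against 0.785, 0.907 and 0.485 FPKM after CNN3 knockdown (adjusted p = 0.159, limma). The summed level of 6 listed fibroblast and reserve cell markers was 796.6 to 1090 FPKM in siNC and 446.5 to 584.8 FPKM in siCNN3, and that of 5 listed smooth muscle markers was 331.5 to 492.6 and 229.5 to 273.9 FPKM. The collagen gene Col3a1 (means of 772.1 and 410.3 FPKM) and Dcn (157.9 and 68.7 FPKM) set most of the fibroblast sum, while Cd34 was at 29.2 and 28.0 FPKM and Myf5 at 4.68 and 9.93 FPKM. Of these 11 genes 0 were called by limma, while at an unadjusted p below 0.05 there were 2 lower and 1 higher among the fibroblast and reserve cell markers and 3 lower among the smooth muscle markers, beside 6.14% lower and 9.94% higher among all genes. Without siCNN3 replicate 3, Dcn and Smtn were called lower and Myf5 higher, and without siNC replicate 1 Acta2 was called lower. For the 6 listed blood and immune cell markers the sum was 234.7 to 658.5 FPKM in siNC and 54.0 to 76.2 FPKM in siCNN3, with Hbb-bs and Hbb-bt called lower (against 0.336% of all genes) and Ptprc and Adgre1 not listed. Of these 6 markers 4 were called without siNC replicate 2, 1 without siCNN3 replicate 3 and 0 without any 1 of the other libraries. Of the 13 interferon response genes 10 were called higher, against 1.73% of all genes, and between 0 and 10 with 1 library left out (0 without siNC replicate 3, 1 without siCNN3 replicate 1 or 2, and 3 without siNC replicate 1). The part of these groups in the values of Myh3 was not tested.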

How the data were processed

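Values of C2C12 cells from 3 siNC and 3 siCNN3 libraries were used. The authors deposited FPKM per Ensembl transcript. The submitters' processing notes name Bowtie 0.12.2 and the builds mm8 and mm10, while the program that estimated FPKM, the annotation and any filter are not given in the sources used here. Identifiers were matched without version to GENCODE M21 (GRCm38), which matched 23949 of 24023. FPKM was summed by gene, genes averaging 0.5 FPKM or more were kept, and log2(FPKM + 1) was fitted with limma 3.58.1 in R 4.3.3 (mean-variance trend, no covariate, Benjamini-Hochberg over all genes). The fit was tested on simulated data. Sums, shares and ratios were compared by exact permutation tests. Groups came from sample titles. Members and gene lists were chosen with earlier results of these data known. Named genes were the members, Cnn3, other myosin heavy chains, up to 3 called genes per list (otherwise the gene with the largest change) and the 5 genes most correlated with Myh3, Mybph, Myh9 and Myh10. Some genes that met these rules are not reported here. Des, Ckm, Myog, S100a4, Myl6, Myl12b, Rhoa, Rhoc, Ppp1r12a, Myl6b, Mylk2, Mylk4, Smtn, Myf5, Col3a1, Cd34 and the not listed partners were named after their values were seen. Lists were the muscle light chains, thick filament partners, myosin folding and assembly, non-muscle myosin II control, unconventional myosins, interferon response genes and markers of myotubes, fibroblasts and reserve cells, smooth muscle, and blood and immune cells. Murc was matched as Cavin4. Alternatives changed the pseudocount, filter, scaling, trend, transcripts used, identifier version, replicate block and libraries. Protein sequences were not used. Sequences were read and figures drawn in Python 3.11.15 with pandas 2.3.3 and matplotlib 3.10.9.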

Additional observations from a re-analysis of the deposited data

How the results depend on the processing

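Myh3 was below 0 in the 15 alternatives that gave it a value and was called in 11 of them. Its log2 fold change was -1.38 with the replicate block (adjusted p = 0.0736, limma, not called), where the counts of called genes were 6 lower and 62 higher, Arhgef2 was not called and the lists of muscle light chains, myotube markers and blood and immune cell markers had 1 call each (Mylpf, Acta1 and Hbb-bs). The correlation of deviations of same-numbered libraries was -0.28, 0.31 and -0.02. With so few libraries, these values cannot show whether same-numbered libraries were paired. With 1 library left out the log2 fold change of Myh3 was -1.47 to -1.25 and that of Myh7b -0.27 to 0.15. A pseudocount of 0.1 gave -2.67 for Myh3 (adjusted p = 0.0240, limma) and -1.46 for Mybph (adjusted p = 0.121, limma). Myh10 turned to 0.026 with the highest transcript only and with transcripts above 0 in all libraries, where the Myh10 to Myh9 log2 ratio turned from -0.21 to 0.13. The causes were not tested. Counts of lower genes (39 as reported) were 63 with median-of-ratios scaling, 93 with quantile normalization, 22 with the highest transcript only and 4 to 159 with 1 library left out. Counts of higher genes (200 as reported) were 100 with the highest transcript only, 125 with transcripts above 0 in all libraries and 16 to 443 with 1 library left out. Mybph, Myh9 and Myh7b were not called in any alternative, nor was Myh10 (lowest adjusted p = 0.0876, limma, quantile normalization). With a filter at 5 FPKM, Myh3, Mybph and Myh7b had no value. Leaving out 1 library, the Myh3 and Myh7b share differed by -0.63 to -0.48 percentage points, their sum by -2.51 to -1.88 FPKM, the sum of Myh9 and Myh10 by -51.7 to -16.7 FPKM and the Myh10 to Myh9 log2 ratio by -0.27 to -0.10. Unknown depth limits what can be said of genes under 1 FPKM.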

Other observations

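Unconventional myosins, which move cargo and membranes along actin instead of forming filaments, were also looked up in the table. Of 24 genes 13 were listed, 12 were tested and 0 were called by limma (2 were lower and 1 higher at an unadjusted p below 0.05, beside 6.14% and 9.94% of all genes), and 11 of the 12 were below 0, as were 46.0% of all genes (median log2 fold change -0.22). Myo19, a motor of mitochondria, was the exception above 0, reading 1.05, 2.03 and 2.18 FPKM in the siNC libraries against 4.15, 3.36 and 3.02 FPKM after CNN3 knockdown (log2 fold change 0.73, adjusted p = 0.163, limma). Myo10, which carries cargo to the tips of filopodia, differed by -0.54 on the log2 scale (limma, adjusted p = 0.135) and was chosen after its values were seen.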
